A study of Homo sapiens with 8 samples.

Results

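The mRNAs described here encode parts of the cytoskeleton: the actins ACTB and ACTG1, the actin crosslinker ACTN4, the tubulins TUBA1B, TUBB and TUBB4B, the intermediate filament protein VIM and the motor subunit DYNC1H1. Binding sites of G3BP1 on them were taken as all peaks lying within 8 fixed windows of the human genome (build hg19), 1 window per gene, on the strand of the gene. This gave 104 of the 4346 peaks in both lists together, 34 of 1421 in untreated cells and 70 of 2925 after PDS. Peaks were present in 7 of the 8 windows.

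Actin filaments and microtubules are polymers of actin and of alpha and beta tubulin, and VIM builds the intermediate filaments of mesenchymal cells. DYNC1H1 is the heavy chain of cytoplasmic dynein, the motor that walks towards the minus ends of microtubules. G3BP1 is an RNA-binding protein that nucleates stress granules, assemblies of untranslated mRNA and protein. Guanine quadruplexes are stacked four-stranded folds of G-rich DNA or RNA, and the title of the study names their occurrence in mRNAs as its subject.

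The study used seCLIP, in which UV light links RNA to bound protein and the RNA pulled down with the protein is sequenced beside an input library, in HEK293T, an established human embryonic kidney line. Of the 8 libraries, 2 were G3BP1 immunoprecipitates (IP) and 2 inputs from untreated cells (Ctrl), and 2 IP and 2 inputs came from cells that had been exposed to PDS at 20 µM for 12 h when they were crosslinked. The meaning of PDS is not in the labels; among quadruplex ligands the name is that of pyridostatin, which stabilises these folds. The antibody, against G3BP1, was used in the IP libraries of both conditions, and no cells lacking G3BP1 were among the samples.

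The authors deposited 1 peak list per condition, combining both replicates. Each peak carries the authors' log2 fold of IP over input and their −log10 p, with no value per replicate, so no SD, test or library depth stands behind any difference below. Every listed peak has a log2 fold above 3, and 400 is a ceiling of the −log10 p, reached by 8 Ctrl and 82 PDS peaks. The highest value below this ceiling was 87.3 in the Ctrl list and 87.9 in the PDS list. No peak lay between, so the distance from 400 to another value has no measured size. The median −log10 p of all peaks was 11.9 in the Ctrl list and 17.8 in the PDS list, and among the cytoskeletal peaks it was 18.3 and 20.7. The part of this difference in the counts below was not tested. Positions are given within the hg19 windows, as distances in the direction of transcription from the upstream window edge, and were not assigned to exons, introns or UTRs.

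In total the windows held 34 Ctrl and 70 PDS peaks, a ratio of 2.06, which is that of the whole lists (2.06). The excess was unevenly spread. DYNC1H1 differed most in number, with 12 Ctrl and 35 PDS peaks, and so supplied 23 of the 36 additional peaks. Its ratio, 2.92, was below those of VIM (4) and TUBA1B (3), which rest on 1 Ctrl peak each. ACTB had 8 Ctrl and 12 PDS peaks, ACTG1 7 and 8, ACTN4 4 and 6, VIM 1 and 4, TUBA1B 1 and 3 and TUBB4B 1 and 2. TUBB had 0 peaks in both lists. Without DYNC1H1 the counts were 22 and 35, a ratio of 1.59.

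**Figure D1:**
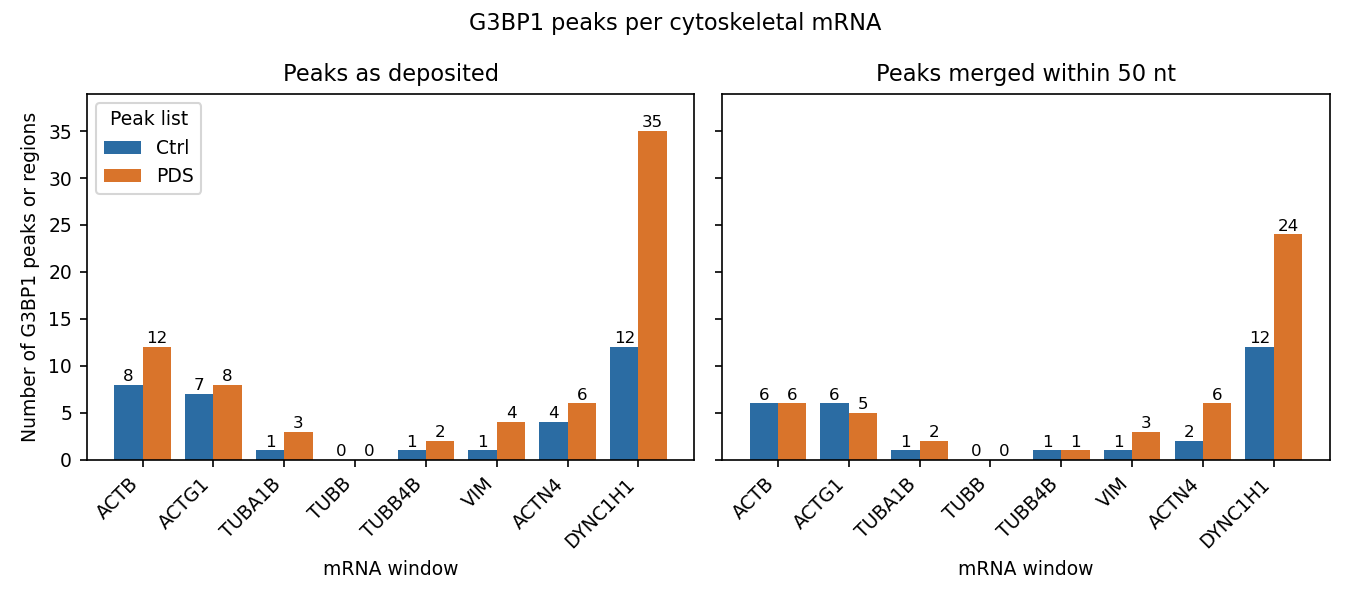
Number of G3BP1 peaks per mRNA window in the Ctrl (blue) and PDS (orange) lists, as deposited (left) and after joining same-strand peaks within 50 nt into regions (right); each bar is 1 combined list, so there are no error bars. DYNC1H1 had 12 Ctrl and 35 PDS peaks, or 12 and 24 regions, whereas ACTB held 6 regions in both lists.

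Counted as regions, the lists lay closer together. Joining peaks within 50 nt left 29 Ctrl and 47 PDS regions, a ratio of 1.62 against 1.73 over the whole lists. For ACTB the 8 Ctrl and 12 PDS peaks became 6 regions each, and for ACTG1 the order turned, with 6 Ctrl and 5 PDS regions. ACTN4 moved the other way, with 2 Ctrl and 6 PDS regions. The length under peaks was 2369 nt in the Ctrl and 4245 nt in the PDS list, a ratio of 1.79 (1.74 over the whole lists). With peaks of both lists joined, the windows held 56 sites, of which 18 carried peaks of both lists, 10 of the Ctrl list alone and 28 of the PDS list alone. Peaks of both lists were thus present at 32.1% of the sites, where 22.4% of the 2599 sites of the whole lists had both, 22.2% had Ctrl peaks alone and 55.4% PDS peaks alone. ACTB held 5 of the 18 sites with both, out of 6 sites in its window (83.3%). DYNC1H1 held 7, out of 29 (24.1%, near the share of the whole lists).

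The actin mRNAs were compared first. ACTB encodes beta-actin, the main cytoplasmic actin of most cells, and its window covers 5566700 to 5570300 on the minus strand of chromosome 7. Peaks stood at 2.22 per kb of window in the Ctrl list and 3.33 per kb in the PDS list. In both lists they began about 1 kb into the window, the first starting 1017 nt (Ctrl) and 1011 nt (PDS) from its upstream edge. The first kb of the window thus held no peak in either list.

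The most enriched ACTB peak lay at nearly the same place in both conditions. In the Ctrl list it was the 67-nt peak at 5568246 to 5568312, with a log2 fold of 4.52 (22.9-fold over input). In the PDS list it was the 75-nt peak at 5568219 to 5568293, with a log2 fold of 4.68 (25.6-fold). Abutting it on the 3′ side was a broad peak, 133 nt wide with a log2 fold of 3.89 in the Ctrl list and 107 nt wide with 3.72 in the PDS list. Its −log10 p was at the ceiling of 400 in the Ctrl list and 45.9 in the PDS list, which is the only peak of the cytoskeletal windows at that ceiling in untreated cells.

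Further upstream, ACTB carried a peak of 4 nt with identical borders in both lists, at 5569166 to 5569169. Its log2 fold was 4.32 in Ctrl and 4.47 in PDS. It abuts a 114-nt Ctrl peak with a log2 fold of 3.22, which in the PDS list was divided into 3 pieces of 87, 13 and 20 nt with log2 folds of 3.11, 3.74 and 4.13 in the order of transcription. The stretch was therefore listed in both conditions, in 1 piece in Ctrl and in 3 in PDS. A further peak at 5569005 to 5569031 had a log2 fold of 4.10 in Ctrl, and 4.56 in its PDS counterpart, which shares the 5′ border.

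Overlap at ACTB was the highest among the members with more than 1 Ctrl peak: 7 of 8 Ctrl peaks and 9 of 12 PDS peaks shared at least 1 nt with the other list, where 51.5% of all Ctrl and 30.6% of all PDS peaks did. The remaining Ctrl peak, at 5567931 to 5567963, ended 2 nt short of a PDS peak. Of the 3 unshared PDS peaks, that neighbour (5567966 to 5568074, log2 fold 3.60) and the most 3′ one (5567383 to 5567441, 3.98) lay 2 and 14 nt from a Ctrl peak. The third, at 5568797 to 5568882 with a log2 fold of 3.13, was 122 nt from the nearest Ctrl peak and was the sole ACTB site of the PDS list alone.

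ACTG1 encodes gamma-actin, the other cytoplasmic actin, which differs from beta-actin in only a few residues near its amino end. Its window covers 79476900 to 79480000 on the minus strand of chromosome 17, with 2.26 Ctrl and 2.58 PDS peaks per kb. Of its peaks, 3 of 7 in Ctrl (42.9%) and 4 of 8 in PDS (50%) were shared, the first below and the second above the share of the whole list, 51.5% and 30.6%.

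The most enriched PDS peak of all 8 mRNAs was in ACTG1. It spanned 87 nt at 79477324 to 79477410, had a log2 fold of 5.24 (37.9-fold) and ranked 56th of 2925 in its list. No Ctrl peak was listed there, and the nearest lay 276 nt away. The most enriched Ctrl peak of ACTG1, at 79478227 to 79478268 with a log2 fold of 4.08, was met by a 30-nt PDS peak with 3.54. Next in Ctrl came an abutting pair at 79478530 to 79478628, with log2 folds of 3.65 and 3.98, and the nearest PDS peak was 268 nt away. The most 5′ Ctrl peak of the window, starting 197 nt from its upstream edge (log2 fold 3.04), was also without a PDS counterpart.

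Of the other ACTG1 peaks, the Ctrl peak at 79479258 to 79479325 (log2 fold 3.43) had 63 of its 68 nt under 2 PDS peaks, of 60 nt with a log2 fold of 3.88 and of 3 nt with 3.09. The Ctrl peak at 79477687 to 79477705 (3.39) shared 10 nt with a PDS peak of log2 fold 3.01. The last Ctrl peak, at 79479139 to 79479168, had 3.05 and no partner. The remaining 3 PDS peaks had log2 folds of 3.35, 3.05 and 3.10. ACTG1 thus had similar numbers of peaks in both lists, at places that coincided in part. RefSeq (GRCh38.p14) lists 14 pseudogenes under ACTB names and 21 under ACTG1 names. How reads mapping to several copies were handled is not given in the sources used here, so the actin values are uncertain to that degree.

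ACTN4, alpha-actinin-4, crosslinks actin filaments in non-muscle cells. Its window is long, 84.1 kb on the plus strand of chromosome 19 (39138200 to 39222300), and its 4 Ctrl peaks all lay near its 3′ end, from 76619 nt into the window onwards. A run of 3 of them, at 39220035 to 39220285, had log2 folds of 3.12, 3.63 and 5.07 from 5′ to 3′. The last of these, 142 nt wide and 33.6-fold over input, was the most enriched Ctrl peak of all 8 mRNAs and ranked 33rd of 1421. The first ACTN4 Ctrl peak, at 39214819 to 39214858, had a log2 fold of 3.08.

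In the PDS list this ACTN4 site had a lower fold. The PDS peak inside it was 32 nt wide, at 39220249 to 39220280, with a log2 fold of 3.19 and a −log10 p of 8.07, against 29.6 in Ctrl. A further PDS peak, at 39219971 to 39220030 with a log2 fold of 3.56, ended 4 nt before the Ctrl run. The other 4 PDS peaks lay upstream, at a genomic distance of 6126 nt or more from any Ctrl peak of the window. They were at 39138469 to 39138547, beginning 269 nt into the window (log2 fold 3.86), at 39191240 to 39191271 (3.75), at 39207730 to 39207797 (3.04) and at 39208588 to 39208692 (3.74). Peaks of ACTN4 thus lay at the 3′ end of the window in the Ctrl list and ran from its 5′ to its 3′ end in the PDS list.

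The tubulin mRNAs carried few peaks. TUBA1B, an alpha-tubulin on the minus strand of chromosome 12 (window 49521500 to 49525400), had 1 Ctrl peak, of 85 nt at 49523290 to 49523374, with a log2 fold of 3.01, just above the lower limit of the list. A PDS peak overlapped it by 80 nt with a log2 fold of 3.15. The other PDS peaks were stronger and lay at the 3′ end of the window, at 49521787 to 49521882 (log2 fold 4.33) and 49521671 to 49521750 (3.79), the latter ending 171 nt from the window's edge. They were at least 1407 nt from the Ctrl peak.

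TUBB4B, a widely expressed beta-tubulin on the plus strand of chromosome 9 (window 140135700 to 140138200), had 1 Ctrl peak at 140137420 to 140137525, with a log2 fold of 3.44. Its 2 PDS peaks abutted each other at 140136951 to 140137110 and had log2 folds of 4.06 and 4.24. They lay upstream of the Ctrl peak, 309 nt from it at the closest, so no TUBB4B site was shared. TUBB, another beta-tubulin, on the plus strand of chromosome 6 (window 30687900 to 30693300), was without a peak in either list. The lists hold only peaks above their limits, so weaker binding to TUBB was not measured. RefSeq lists 11 pseudogenes under TUBB names and 8 under TUBB4B names, and the handling of reads shared between copies is, as for the actins, not given.

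**Figure D2:**
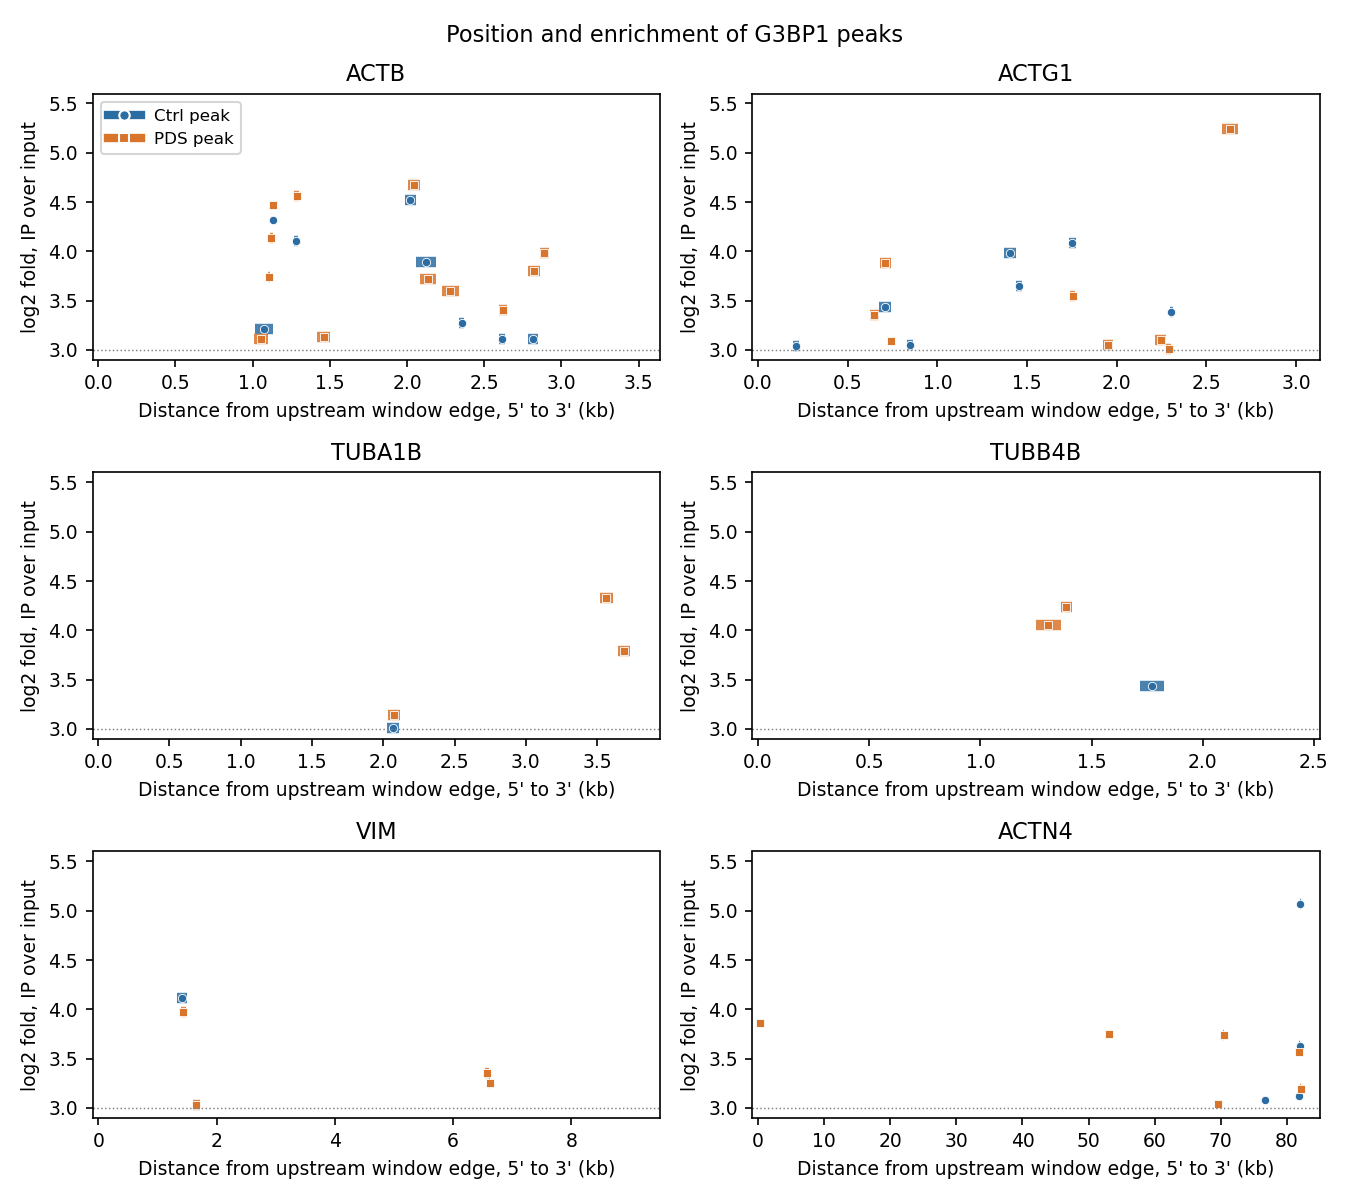
G3BP1 peaks of 6 mRNAs, drawn to scale along each window from 5′ to 3′ (x axis, kb from the upstream window edge) at the authors' log2 fold of IP over input (y axis), with Ctrl in blue with round markers and PDS in orange with square markers; the dotted line is the lists' lower limit of 3. In ACTB, which has the highest overlap of the members with more than 1 Ctrl peak, 7 of 8 Ctrl and 9 of 12 PDS peaks overlap the other list. Over the whole lists, 51.5% of Ctrl and 30.6% of PDS peaks do so. The ACTG1 peak at 5.24 (PDS) and the ACTN4 peak at 5.07 (Ctrl) have no counterpart of similar height.

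VIM encodes vimentin, and its window spans 17270200 to 17279600 on the plus strand of chromosome 10. Its Ctrl peak, the widest of the 34 at 161 nt, lay at 17271534 to 17271694 with a log2 fold of 4.12 (17.4-fold) and a −log10 p of 65.3. A PDS peak of 94 nt within it, at 17271592 to 17271685, had a log2 fold of 3.97 and a −log10 p of 27.6. The PDS list also held a peak 103 nt downstream of the Ctrl peak (17271798 to 17271923, log2 fold 3.03) and an abutting pair 5044 nt from the Ctrl peak, at 17276739 to 17276818, with log2 folds of 3.36 and 3.26. The strongest VIM site was therefore listed in both conditions, and the sites of the PDS list alone had lower folds.

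DYNC1H1 held the most peaks of the 8 mRNAs, 12 of the 34 in Ctrl and 35 of the 70 in PDS. Its window runs from 102430800 to 102517200 on the plus strand of chromosome 14. Because it covers 86.4 kb, the density was low, at 0.14 Ctrl and 0.41 PDS peaks per kb of window. These are genomic kb, introns included, so the density along the spliced mRNA was not measured. The RefSeq gene (GRCh38.p14) is longer than the window, at 91871 nt, yet no same-strand peak of either list lay within 2000 nt outside it. The 12 Ctrl peaks were all separate, with log2 folds from 3.07 to 4.03. The 35 PDS peaks formed 24 regions, with log2 folds from 3.06 to 4.91.

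The 5′ end of DYNC1H1 carried peaks in both conditions. The Ctrl peak at 102431108 to 102431188, starting 308 nt into the window, had a log2 fold of 3.69 and a −log10 p of 13.9. In the PDS list a run of 3 abutting peaks covered 102431026 to 102431230, with log2 folds of 3.66, 4.09 and 4.50 from 5′ to 3′. The last and widest of them contained the Ctrl peak whole and had a −log10 p of 73.5.

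Downstream of this site the lists diverged. The Ctrl list had no peak over the next 43.4 kb, up to 102474542. That stretch was singled out after its values were seen, for its lack of Ctrl peaks, so a PDS peak within it could have no Ctrl partner. In it the PDS list held 10 peaks in 7 regions with log2 folds from 3.06 to 4.70. They fell into 4 groups. A lone 41-nt peak at 102449830 to 102449870 was the weakest, with a log2 fold of 3.06. Then came 4 peaks between 102452149 and 102453030, of which the last had 4.20, and 4 between 102466373 and 102466636, with 3.79 to 3.92. The strongest was the 76-nt peak at 102468917 to 102468992, with a log2 fold of 4.70.

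The centre of the DYNC1H1 window held the strongest PDS site. The Ctrl peak at 102478210 to 102478348 had a log2 fold of 3.57 (11.9-fold) and a −log10 p of 21.4. Its PDS counterpart at 102478229 to 102478382 had a log2 fold of 4.91 (30.0-fold) and a −log10 p at the ceiling of 400. About 1 kb upstream, a Ctrl peak at 102477091 to 102477175 with a log2 fold of 3.07 was covered by the first 2 of 3 abutting PDS peaks with 4.42, 4.38 and 4.10. The PDS peaks were higher than the Ctrl peak at both places.

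In the same central part, 5 DYNC1H1 Ctrl peaks overlapped no PDS peak. The most enriched Ctrl peak of the mRNA, at 102474542 to 102474622 with a log2 fold of 4.03, lay 2048 nt from the nearest PDS peak. The next in enrichment, at 102481483 to 102481532 with 4.02, had a PDS peak of log2 fold 3.45 at a distance of 26 nt, close enough for both to count as 1 site. Then followed 3 Ctrl peaks between 102482241 and 102484942, with log2 folds of 3.72, 3.27 and 3.30, at 573 nt or more from a PDS peak. Between 50 and 60 kb into the window the Ctrl list had 4 peaks and the PDS list 1, and this was the only 10-kb bin of the window with more Ctrl than PDS peaks.

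Towards the 3′ end of DYNC1H1, 3 of 4 Ctrl peaks overlapped PDS peaks. The Ctrl peak at 102498639 to 102498722 (log2 fold 3.84) was covered by 2 abutting PDS peaks with 4.30 and 3.97. At 102506620 to 102506698 the Ctrl peak had 3.95 and its PDS counterpart 4.75, and at 102510940 to 102511009 the values were 3.72 and 4.39. The fourth Ctrl peak, at 102508805 to 102508840 with a log2 fold of 3.40, lay 1483 nt from the nearest PDS peak. Among them stood 3 PDS peaks without a Ctrl partner, starting at 102504824, 102505479 and 102510324, with log2 folds of 3.86, 3.50 and 3.99. Upstream of all these, 5 PDS peaks between 102493745 and 102496617 had log2 folds of 3.13 to 3.70 and no Ctrl partner. No peak of either list lay in the last 6 kb of the window, the nearest ending 6191 nt (Ctrl) and 6194 nt (PDS) from its downstream edge.

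**Figure D3:**
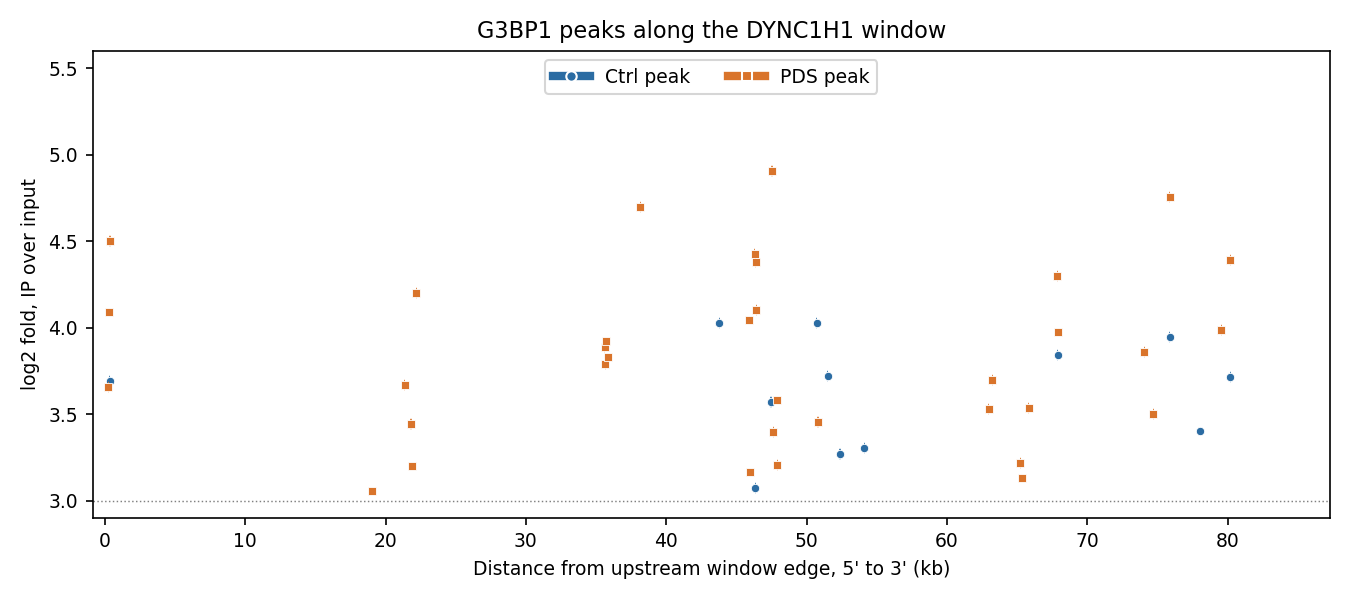
G3BP1 peaks along the DYNC1H1 window from 5′ to 3′ (x axis, kb from the upstream window edge), each at the authors' log2 fold of IP over input (y axis), with Ctrl in blue with round markers and PDS in orange with square markers; the dotted line is the lists' lower limit of 3. Between the first Ctrl peak and the second, 43.4 kb further on, lie 10 PDS peaks. That stretch was picked for its lack of Ctrl peaks, so these 10 have no Ctrl partner by definition. The 4 pairs of 1 overlapping peak per list are all higher in PDS, as were 62% of all 410 such pairs. Overlaps with more than 1 peak in a list are not among these pairs.

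Enrichment was then set side by side at the places where exactly 1 Ctrl peak overlapped exactly 1 PDS peak, which gave 13 pairs in the 8 windows. The PDS log2 fold was the higher in 9 of the 13, against a background of 62% over all 410 such pairs of the lists, so the share was near that of all pairs. The median difference, PDS minus Ctrl, was 0.29 in the members and 0.15 over all pairs. Among these pairs the direction varied with the gene. All 4 ACTB pairs were higher in PDS, by 0.15 to 0.69, as were the TUBA1B pair, by 0.13, and all 4 DYNC1H1 pairs, by 0.68 to 1.34. Because every listed peak has a log2 fold above 3, a pair with a Ctrl value near 3 could hardly be lower in PDS. This limit applies to the TUBA1B pair, at 3.01 in Ctrl, and to ACTB pairs at 3.11 and 3.12 in Ctrl. The ACTG1 pairs were lower in PDS, with differences of -0.54 and -0.38, as was the VIM pair with -0.15. Overlaps with more than 1 peak in a list are left out, so these directions hold for the pairs alone. Among those left out, the ACTG1 Ctrl peak with 3.43 met PDS peaks with 3.88 and 3.09. The broad ACTB peak, also left out, had 3.89 in Ctrl and 3.72 in PDS.

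The ACTN4 pair stood apart, with a difference of -1.88 between 5.07 in Ctrl and 3.19 in PDS, the lowest of all 410 pairs. Its PDS peak covers 32 of the 142 nt of the Ctrl peak, so that the values are not those of the same stretch. The ACTN4 Ctrl value was also the highest of the 8 mRNAs, which left the most room for a lower PDS value. At the other end, the DYNC1H1 pair in the centre of the window, with 1.34, ranked 15th from the highest of 410. In 8 of the 13 pairs the midpoints were at most 10 nt apart, a share like that over all pairs (250 of 410). How far these differences exceed the spread between replicates could not be tested, since a single combined value exists per peak and condition.

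**Figure D4:**
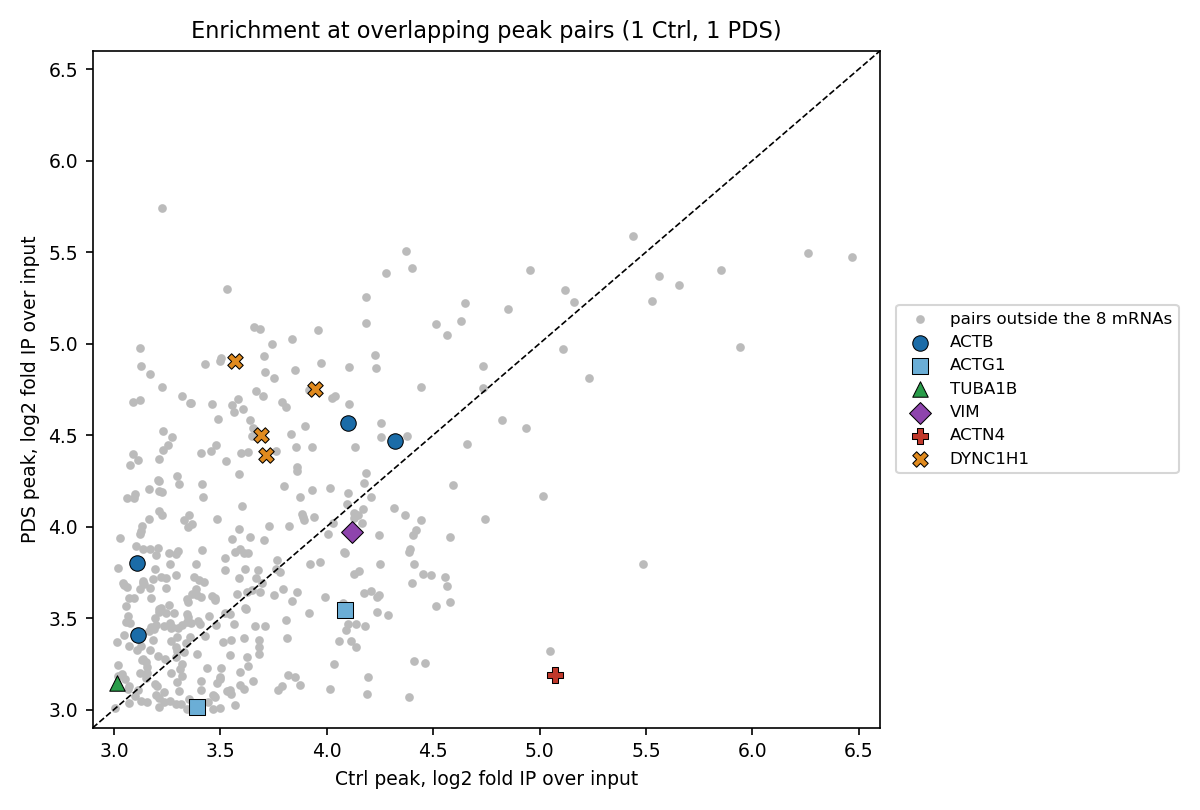
Authors' log2 fold of IP over input in the Ctrl list (x axis) and the PDS list (y axis) for the 410 pairs of 1 Ctrl and 1 PDS peak that overlap, with pairs outside the 8 mRNAs in grey and the 13 cytoskeletal pairs marked by gene; the dashed line marks equal values. The 4 ACTB and 4 DYNC1H1 pairs lie above the line, as do 254 of all 410 pairs. The ACTN4 pair, at 5.07 and 3.19, lies farthest below it.

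Across the 8 mRNAs, 19 of 34 Ctrl peaks overlapped a PDS peak, a share of 55.9% (exact 95% binomial interval 37.9 to 72.8%), where the whole Ctrl list had 51.5%. In the PDS list 24 of 70 peaks did so with a Ctrl peak, 34.3% (23.3 to 46.6%), where the whole PDS list had 30.6%. The intervals cover counting error only, and neighbouring peaks of an mRNA are not independent. The PDS share depended on the genes counted, at 22.9% for DYNC1H1 and 45.7% for the others, and at 51.7% with ACTN4 left out too. With a log2 fold of at least 4 and a −log10 p of at least 5 required in both lists, it was 15.0%, and the Ctrl share 37.5%. This cut left 313 peaks in the whole Ctrl list and 808 in the whole PDS list, and so fewer possible partners. The whole-list shares at this cut were not computed, so these 2 values have no background. Among the mRNAs, DYNC1H1 had 6 of 12 Ctrl and 8 of 35 PDS peaks shared, ACTN4 1 of 4 and 1 of 6, VIM 1 of 1 and 1 of 4, TUBA1B 1 of 1 and 1 of 3, and TUBB4B 0 of 1 and 0 of 2.

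Enrichment of the cytoskeletal peaks was also close to that of all peaks. The median log2 fold was 3.60 in the Ctrl list and 3.74 in the PDS list, against 3.52 and 3.59 over the whole lists. A log2 fold of at least 4 was reached by 8 of the 34 Ctrl peaks, where 22% of the Ctrl list did so, and by 20 of the 70 PDS peaks, where 27.6% of the PDS list did so. The 8 Ctrl peaks were 3 of ACTB, 2 of DYNC1H1 and 1 each of ACTG1, VIM and ACTN4. The 20 PDS peaks were 12 of DYNC1H1, 4 of ACTB, 2 of TUBB4B and 1 each of ACTG1 and TUBA1B, whereas VIM and ACTN4 had 0. Shared peaks had a median log2 fold of 3.72 and unshared ones 3.40 in the Ctrl list, and 3.97 and 3.63 in the PDS list. Over the whole lists the difference had the same direction, with 3.63 and 3.43 in the Ctrl list and 3.97 and 3.47 in the PDS list.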

How the data were processed

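G3BP1 seCLIP of HEK293T cells was analysed from the 2 peak lists the authors deposited, 1 per condition with both replicates combined. Per the submitters' processing notes, cutadapt, UMI-tools and STAR were used and the build was hg19; peak caller, filters and how replicates were combined: not given in the sources used here. The files have no header. One column was read as the deposited −log10 p and one as the authors' deposited log2 fold of IP over input, both inferred from the values and the usual eCLIP format. Starts were read as counted from 0 and are printed from 1.

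The members and lists were chosen with earlier results of these data known. All 8 genes are named. For each, every peak of a list is given where there are up to 5, otherwise the 3 highest by log2 fold, with others described by range or position. Peaks were shared if at least 1 nt overlapped on the same strand. Joining used gaps of up to 50 nt. Overlaps were computed in python 3.11.15 with pandas 2.3.3, numpy 2.4.6 and scipy 1.17.1. For a check, exact copies of 400 Ctrl peaks were planted among random intervals. All 400 were found, as exact copies should be, and 0 of 1421 peaks differed from a brute-force comparison. No test over samples was possible. A further list of cytoskeletal genes and the sequences under peaks need an hg19 genome or annotation and were not used here. RefSeq tables (GRCh38.p14) gave names, gene lengths and pseudogene counts by symbol. Alternatives were a stricter threshold, wider windows, joined regions, other overlaps and fewer genes.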

Additional observations from a re-analysis of the deposited data

How the results depend on the processing

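Of 39 alternative values for the 8 mRNAs together, 27 changed little and 12 moved, with little change meaning a factor of at most 1.5 for counts and the ratio, and a value inside the main 95% binomial interval for shares and medians. Windows widened by 2000 nt changed no value and could change none, since the nearest same-strand peak outside a window was 75992 nt away. The values of this setting are among the 27. The interval of the Ctrl share, 37.9 to 72.8%, was wide, so 70.6% with peaks within 100 nt counted as little change from 55.9%. The stricter threshold (log2 fold from 4 and −log10 p from 5 upwards) left 8 Ctrl and 20 PDS peaks, with median log2 folds of 4.11 and 4.39. Shared percentages were 37.5 and 15.0, and the whole-list shares at this threshold were not computed. Without ACTN4 and DYNC1H1, 18 Ctrl and 29 PDS peaks remained and the shared percentage of PDS peaks was 51.7. Without DYNC1H1, chosen after seeing the data, the counts were 22 and 35. Counting PDS peaks within 100 nt as shared gave 48.6%. The PDS to Ctrl ratio lay between 1.59 and 2.50. The 2.50 belongs to the stricter threshold, at which the whole lists held 313 Ctrl and 808 PDS peaks. Joined regions gave 1.62, against 1.73 over the whole lists. Of 32 values for single genes, 16 moved. The TUBB values, 0 in both lists, could not move, nor could a Ctrl count of 1 when peaks were joined. Such values are among those that changed little. The medians at the stricter threshold had to be at least 4, because lower folds were removed. The other moves came with the stricter threshold, joined peaks, fewer genes or a wider definition of sharing, and their causes were not tested. No paired analysis was possible because every peak carries a single value that already combines the replicates, and no replicate could be left out. The depth behind a peak is unknown.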
